A study of Mus musculus with 20 samples.

Results

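The mesonephric mesenchyme of the mouse urogenital ridge was examined at embryonic day E11.5, by single-cell RNA sequencing with molecular identifiers (UMIs, each tagging 1 captured transcript). Its members were all cells that the deposited annotation names Mesonephric Mesenchyme in the 4 libraries of E11.5, 8351 cells out of 94705 in the series. The 4 libraries of E10.5, with 9044 mesenchymal cells, were the comparison. Both stages came from urogenital ridges, with 2 XX and 2 XY libraries each, and the labels give no treatment or genotype that differed between the stages. The labels give the transgene Tg(Nr5a1-GFP) and the strain CD1 for every library, with fathers heterozygous for the transgene and CD-1 mothers. In this transgene the Nr5a1 promoter drives green fluorescent protein in somatic cells of the gonad. Fluorescence helped to find the ridges during dissection, and the ridges held gonad and mesonephros. No sorting of cells is described. How many embryos gave a library is not given in the sources used here.

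The mesonephric mesenchyme is the loose connective tissue between the tubules of the mesonephros, the transient kidney that lies beside the forming gonad. It derives from intermediate mesoderm, is known for expressing Osr1, Tcf21, Nr2f2 and Pdgfra, and later contributes stroma to the genital ducts and cells to the gonad. At these stages it borders the coelomic epithelium, the mesonephric tubules and the Wolffian duct, with which it exchanges WNT, BMP, FGF, hedgehog and retinoic acid signals.

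At E11.5, 2221 mesenchymal cells came from XX replicate 1, 1215 from XX replicate 2, 2929 from XY replicate 1 and 1986 from XY replicate 2, and values of single libraries are given below in this order. Their summed UMIs ranged from 19500628 to 47379664 per library, against 34199507 to 76008786 at E10.5, and the median per cell from 14732 to 17799 against 23149 to 25857. Libraries of the 8 shared 6 to 41 cell barcodes in a pair, at most 1.05% of the smaller library. Sex-linked transcripts went partly against the labels of E11.5. The library labelled XY replicate 2 held Xist, the transcript that coats the inactive X chromosome, at 62.6 CPM (UMIs scaled to a common library total), with 70 of 1986 cells at 3 or more Xist UMIs, whereas the other XY libraries of both stages held at most 1.54 CPM. The library labelled XX replicate 2 held 4 Y-linked genes at 4.87 CPM in sum, with 18 of 1215 cells at 3 or more such UMIs, and the other XX libraries at most 0.0693 CPM. Some results are also given without XY replicate 2, though not every change is listed. The dates in the library names differed between the stages, so stage and date cannot be told apart, and XX and XY libraries of a stage with the same replicate number shared a date. P-values measure the spread between these libraries.

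The annotation was first set against its markers at E11.5, as a description, since cells were annotated from these same values. Only types with at least 5 cells in each library of E11.5 were compared. Adrenosympathic cells, interstitial progenitors and surface epithelium, among others, were thus left out. Nr2f2, a nuclear receptor of mesenchyme, reached 491 ± 14.7 CPM (SD, n = 4) in the mesenchyme against 229 ± 22.9 in the coelomic epithelium, the next highest type. Osr1, a zinc finger factor of intermediate mesoderm, reached 32.0 ± 3.49 against 15.5 ± 3.76 in the early supporting-like cells. These 2 markers were highest in the mesenchyme. Tcf21, a helix-loop-helix factor of mesenchymal progenitors, stood at 142 ± 52.8 in the mesenchyme and 189 ± 105 in the coelomic epithelium, and Pdgfra, a platelet-derived growth factor receptor, at 61.5 ± 2.58 and 82.8 ± 17.9, so neither was highest in the mesenchyme. Among the genes furthest above every other type compared was Nefm, a neurofilament gene (87.8 ± 9.21 CPM, 9.03-fold over the next type compared). Others were Prrx1 (75.3 ± 9.27 CPM, 8.28-fold), a homeobox gene of limb and body wall mesenchyme, and Agtr2 (53.3 ± 21.1 CPM, 8.22-fold), the type 2 angiotensin receptor. Pdgfrb, Lhfp, Ntrk2, Shisa3, Alx1, Acta2, Foxp2 and Mgp followed, at 5.17- to 7.29-fold. Markers of other cells were summed as well. Coelomic epithelium markers summed to 109 to 165 CPM at E11.5 and 92.1 to 127 at E10.5, set against 658 to 786 and 355 to 472 for the 4 mesenchyme markers. Germ cell markers summed to 16.7 to 28.9 CPM at E11.5 and 4.75 to 10.6 at E10.5, and erythroid markers to 95.2 to 1284 and 45.5 to 422. Skeletal muscle markers summed to 69.4 to 86.8 CPM at E11.5 and 189 to 235 at E10.5. They include Des, desmin, which is also in the contractile list and whose level is given with that list below. Sclerotome and cartilage markers summed to 65.9 to 73.4 and 84.3 to 123. Among these, the muscle factors Myf5, Myog and Pax7 and the sclerotome factors Pax1 and Pax9 were at 0 in all 4 libraries of E11.5. Pax7 was at 0 at E10.5 too. In sums over cells, fewer cells with a transcript and less RNA per cell cannot be told apart.

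Mesenchymal cells made up 55.7%, 53.3%, 57.2% and 37.7% of the 4 libraries of E11.5, a mean of 50.9% ± 9.0 (SD, n = 4). At E10.5 they made up 64.5%, 64.5%, 51.0% and 59.9%, a mean of 60.0% ± 6.37. The libraries of E11.5 other than XY replicate 2 lay within the range of E10.5. The difference of -9.03 percentage points was within the spread between libraries (p = 0.143, exact permutation test, two-sided), and was -4.60 points without E11.5 XY replicate 2 (p = 0.286, exact permutation test). After E11.5 the same name was given to 121 cells, of which 114 came from E12.5.

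More mesenchymal cells were called G1 at E11.5 than at E10.5. By the deposited phase calls, G1 cells made up 47.1%, 42.8%, 52.1% and 49.4% of the mesenchyme at E11.5 and 17.3%, 28.2%, 29.1% and 25.1% at E10.5, with no overlap between stages. The mean G1 share was 47.8% ± 3.94 against 24.9% ± 5.37 (SD, n = 4), a difference of 22.9 points (p = 0.0286, the smallest that an exact permutation test of 4 against 4 can give). S phase cells fell from 39.8% ± 3.78 to 29.2% ± 3.67 and G2M cells from 35.3% ± 1.81 to 23.0% ± 1.62, each with the same exact permutation p of 0.0286. Libraries of a stage came from 2 dates, and by date the comparison is 2 against 2, where no exact permutation p can go below 0.333. Cells were deeper at E10.5, so phases were called again after thinning every cell to 8000 UMIs, and the G1 shares were then 50.9% and 28.4%.

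**Figure D1:**
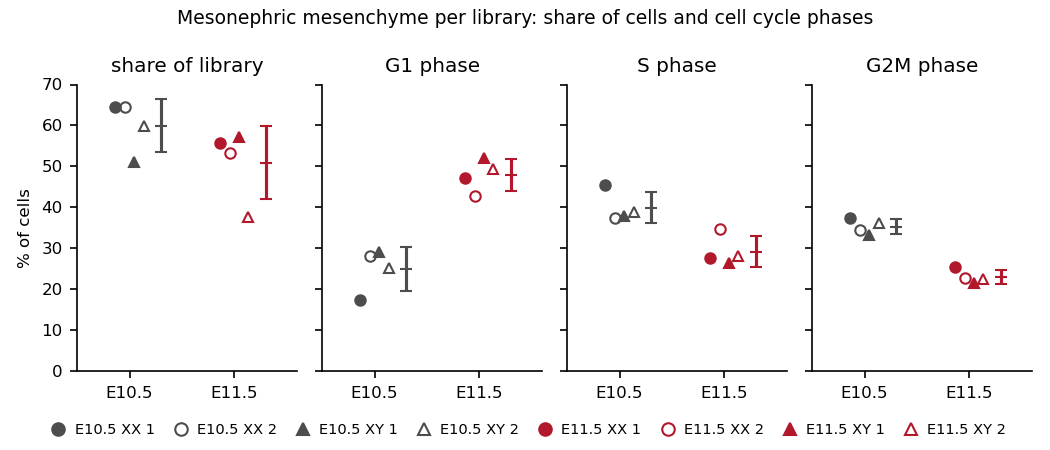
Share of library cells that were mesonephric mesenchyme, and shares of mesenchymal cells in each deposited cell cycle phase (%), per library at E10.5 (grey) and E11.5 (red), with the mean and SD of 4 libraries as bars. G1 shares lay between 42.8% and 52.1% at E11.5 and between 17.3% and 29.1% at E10.5, while shares of the library overlapped.

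The deposited phases are scores over published sets of S and of G2 and M phase genes. The genes counted next are from sets of that kind, so their counts are not independent of the phase shares. Of 42 S phase genes, 23 were lower at E11.5 and none higher, and of 52 G2 and M phase genes 30 were lower and none higher, in edgeR's quasi-likelihood test on UMIs summed per library. A call needed an adjusted p under 0.05 together with a fold of at least 0.25 on the natural log scale, and of all 19354 genes tested, 17.4% were called higher, 13.9% lower and 31.2% in either direction. Aurkb, a mitotic kinase, stood at 40.7 ± 2.68 TMM-normalized CPM at E11.5 and 71.0 ± 5.69 at E10.5 (SD, n = 4). Its log2 fold change was -0.81 ± 0.08 (adjusted p = 0.000231 in edgeR). The ± of a log2 fold change is an SE here and below. Gmnn, the inhibitor of replication licensing, fell by 0.81 on the log2 scale (adjusted p = 0.000445 in edgeR), and Top2a, the topoisomerase of dividing cells, by 0.66 (adjusted p = 0.00247). Pcna, the replication clamp, did not pass (-0.26 ± 0.15, adjusted p = 0.218). Between clusters 2 and 0, described below, 28 S phase and 30 G2 and M phase genes were lower, and between clusters 12 and 10 the counts were 5 and 20, with none higher in either pair. Of all genes, 16.3% and 13.8% were lower in these pairs, so the S phase count between clusters 12 and 10 was near the share of all genes. Among cells called G1 by that same score, 15 of 42 S phase and 22 of 51 G2 and M phase genes were lower and 1 of each list was higher, where 12.4% of all genes were lower and 14.6% higher.

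Between E10.5 and E11.5, 3359 genes rose and 2688 fell in the mesenchyme, with a median log2 fold change of 0.02 over all 19354 genes. The 12 largest rises among genes of at least 50 CPM, in libraries that did not overlap, spanned 5.61- to 36.0-fold. Libraries of the 2 stages did not overlap for 19.9% of all genes on the higher side and 19.0% on the lower side. Agtr2 (chrX:21484544-21489164, GRCm38, plus strand) led. It stood at 51.1, 35.7, 76.9 and 37.2 TMM-normalized CPM at E11.5 and at 1.45, 1.48, 0.820 and 1.65 at E10.5 (log2 fold change 5.17 ± 0.33, adjusted p = 7.99e-05 in edgeR). The receptor was thus low in all libraries of E10.5 and high in all of E11.5. At 8000 UMIs per cell, Agtr2 was seen in 18.8% ± 5.53 of mesenchymal cells at E11.5 and in 0.885% ± 0.306 at E10.5 (unthinned 25.9% and 2.83%, means of 4 libraries). The 200 endothelial cells of E11.5 with 8000 UMIs, taken as background, had it in 1.5%, with a median of 25279 UMIs per cell before thinning against 15648 in the mesenchyme of E11.5 and 23936 at E10.5.

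Other rises included signalling and matrix genes. Hes1, a transcriptional repressor downstream of Notch (chr16:30064384-30067796), stood at 469, 523, 455 and 536 CPM at E11.5 against 68.2, 80.4, 86.9 and 98.7 (2.58 ± 0.11, adjusted p = 3.45e-05 in edgeR). Dcn, the small proteoglycan decorin (chr10:97479609-97518143), stood at 148, 176, 161 and 169 against 21.7, 24.3, 41.4 and 21.4 (2.61 ± 0.20, adjusted p = 0.000109). Spry2, a feedback inhibitor of FGF signalling, rose by 2.62 ± 0.20, Mgp, a matrix protein that limits calcification and binds BMPs, by 2.80 ± 0.28, and Nbl1, a secreted BMP antagonist, by 3.08 ± 0.42 (adjusted p between 9.85e-05 and 0.00126). Gucy1a3, a subunit of the nitric oxide receptor guanylate cyclase, rose by 2.55 ± 0.36. For these genes every library of E11.5 exceeded every library of E10.5. Nr4a1, Egr1, Btg2 and Junb, also among these rises, are genes that many cells switch on within minutes of a stimulus, and are described below with a list of such genes, of which Nr4a1 and Btg2 are not members.

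The 12 largest falls spanned 2.96- to 10.6-fold. Col9a1, a collagen of cartilage (chr1:24177610-24252684), stood at 6.73, 4.63, 4.88 and 6.47 CPM at E11.5 against 78.2, 55.9, 42.6 and 67.6 at E10.5 (log2 fold change -3.41 ± 0.21, adjusted p = 5.1e-05 in edgeR). Meox1, a homeobox gene of somites (chr11:101877510-101894374), stood at 6.06, 4.24, 6.56 and 6.53 against 95.9, 32.6, 30.0 and 65.2 (-3.23 ± 0.42, adjusted p = 0.00109), and varied among the libraries of E10.5 more than the other falls. Crabp2, which carries retinoic acid to its receptors, fell from 294, 233, 187 and 251 to 86.4, 81.3, 80.6 and 76.4 (-1.56 ± 0.11, adjusted p = 7.98e-05). Kitl, the ligand of the KIT receptor of germ cells, stood at 20.3, 22.5, 17.2 and 25.4 against 84.2, 61.2, 89.3 and 58.3 (-1.78 ± 0.18, adjusted p = 0.000229). Igdcc3, an immunoglobulin superfamily gene (-2.48 ± 0.20), Eno3, the muscle enolase (-2.43 ± 0.13), Dusp9, a MAP kinase phosphatase (-2.37 ± 0.25), Adh1, an alcohol dehydrogenase that can oxidize retinol (-2.01 ± 0.13), Actc1, cardiac alpha actin (-1.97 ± 0.22), Hapln1, a hyaluronan link protein (-1.90 ± 0.11), Cck, cholecystokinin (-1.83 ± 0.15), and Hmga1, an architectural chromatin protein (-1.68 ± 0.19), completed the list. Actc1 was -3.93 between clusters 2 and 0, described below, and -0.36 between clusters 12 and 10, where it was not called (adjusted p = 0.415 in edgeR). Some named genes share exon bases with a neighbour on the same strand, such as Alx1 with Gm17028, Capn6 with Gm47298 and Ramp2 with Vps25. These could exchange reads with that neighbour. The neighbours of Adh1 (Gm16559), Hmga1 (Gm49774) and Junb (Prdx2) that share exon bases lie on the other strand.

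**Figure D2:**
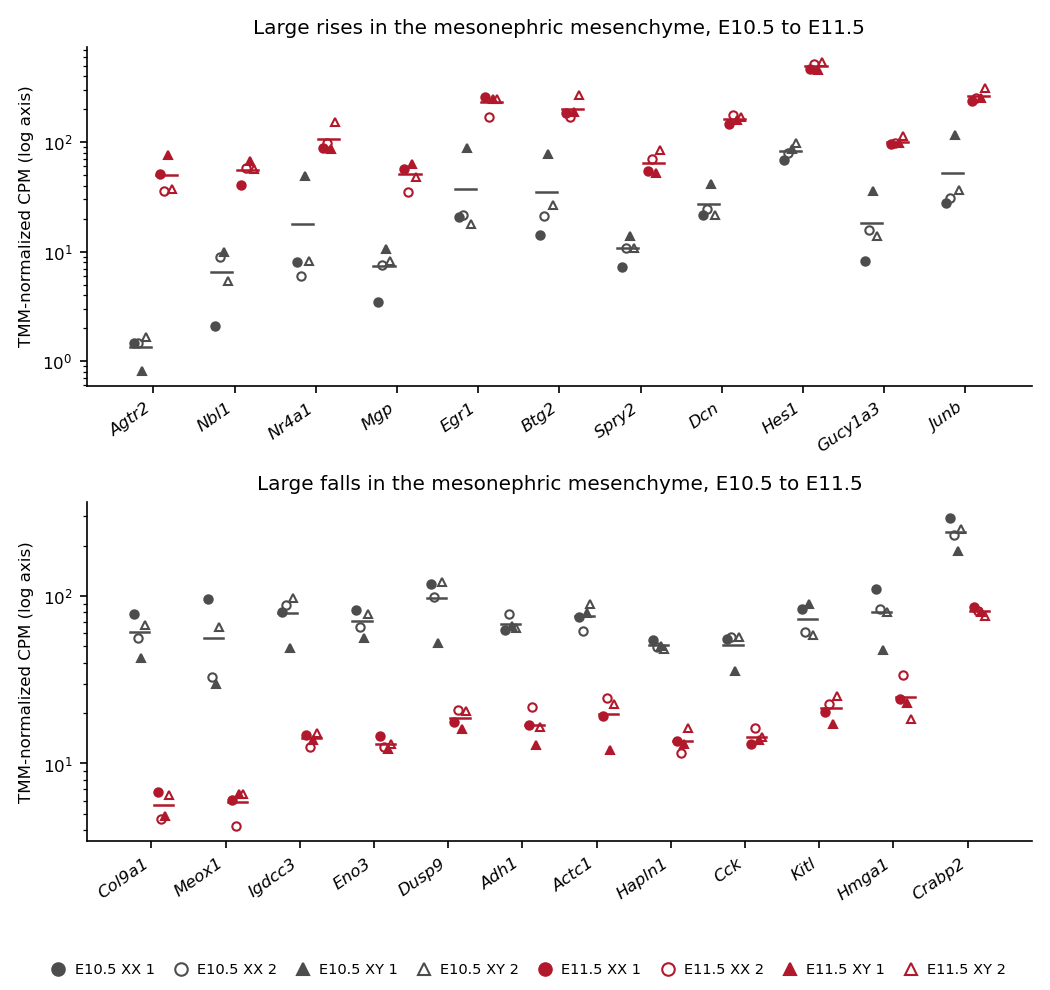
TMM-normalized CPM (log axis) of genes among the 12 largest rises and 12 largest falls, 1 symbol per library at E10.5 (grey) and E11.5 (red), with the mean as a line. The stages did not overlap for any of these genes, which the rule required, and E10.5 XY replicate 1 lay nearest to E11.5 for Nr4a1 (48.7 CPM), Egr1 (89.1), Btg2 (77.8) and Junb (115).

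Cells with muscle or sclerotome transcripts were counted beside the falls of genes of those tissues. A UMI of Myog, Myod1, Myf5, Pax3, Pax7, Pax1 or Pax9 was seen in 857 of 9044 mesenchymal cells at E10.5 (9.48%, between 4.24% and 20.4% by library) and in 17 of 8351 at E11.5 (0.204%). Cells were deeper at E10.5, and at 8000 UMIs per cell the shares were 4.70% ± 3.81 of a library's mesenchyme at E10.5, between 1.43% and 10.0%, and 0.125% ± 0.197 at E11.5, between 0.0% and 0.420% (SD, n = 4). The endothelium, taken as background, had such a UMI at that depth in 3 of 172 cells at E10.5 (1.74%) and 0 of 200 at E11.5, and before thinning in 10 of 172 (5.81%, median 34892 UMIs per cell) and 0 of 208. The stages did not overlap, but the lowest library of E10.5 lay below its background. Myog, the myogenic factor of differentiating muscle, had 4697 UMIs at E10.5 and 0 at E11.5, at least 971-fold lower against a floor of 3 UMIs over the 4 libraries, and Pax9 was at least 172-fold lower. All 6 skeletal muscle markers tested, Des among them, and 4 of 5 sclerotome and cartilage markers were lower at E11.5. So were 6 of 7 neural and neural crest markers and 4 of 6 limb and body wall markers. The muscle count was 3 without E11.5 XX replicate 1, and the sclerotome count 2 without E11.5 XY replicate 1, E10.5 XY replicate 1 or E10.5 XY replicate 2. The neural count was 3 without E11.5 XX replicate 1, XX replicate 2 or XY replicate 2, or without E10.5 XX replicate 1 or XY replicate 2. With the library date as a block in limma-voom the counts were 4 muscle, 4 sclerotome, 2 neural and 3 limb markers. Without the cells that held such a UMI, the log2 fold change of Meox1 was -2.98 (adjusted p = 0.00104), of Actc1 -1.62 (adjusted p = 0.00117) and of Col9a1 -3.29 (adjusted p = 4.82e-05), and 5940 genes were called in edgeR.

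Transcription factors of the urogenital ridge split in both directions, with 12 of 40 higher and 14 lower. Of the 4 markers, Tcf21 (chr10:22817281-22820174) rose to 168, 81.4, 181 and 105 CPM from 29.0, 44.8, 33.7 and 57.4 (1.70 ± 0.31, adjusted p = 0.00422 in edgeR), and Nr2f2 (chr7:70351944-70366735) to 482, 459, 451 and 463 from 225, 326, 283 and 316 (0.69 ± 0.11, adjusted p = 0.00171). Osr1 (chr12:9570116-9581500) fell to 28.2, 29.1, 28.0 and 35.8 from 54.1, 42.2, 43.6 and 42.6 (-0.59 ± 0.12, adjusted p = 0.00419), and Pdgfra (chr5:75152292-75198215) to 61.1, 55.9, 57.1 and 58.1 from 80.4, 87.1, 63.7 and 91.5 (-0.47 ± 0.11, adjusted p = 0.00877). The 4 markers thus did not move together, and between clusters 12 and 10, described below, Pdgfra was not called (-0.17, adjusted p = 0.231 in edgeR). Gata2, a zinc finger factor of the urogenital tract, rose from 26.5 ± 10.9 to 129 ± 25.0 CPM (2.29 ± 0.36, adjusted p = 0.00221). The T-box factors Tbx3 (1.52 ± 0.18) and Tbx2 (1.42 ± 0.23) rose, whereas Tbx18, a T-box factor of ureteric and other mesenchyme, fell (-1.39 ± 0.12). Wt1, the Wilms tumour factor (0.72 ± 0.14), rose too. Osr2 (1.43 ± 0.13) and Emx2 (0.98 ± 0.20), factors of kidney and gonad, rose over all cells, while Ebf1 (-0.80 ± 0.13), Prrx1 (-0.57 ± 0.12) and Ebf2 (-3.22 ± 0.56) fell. Ebf2 lost its call with the library date as a block (adjusted p = 0.0552 in limma-voom) and was -0.25 (adjusted p = 0.421 in edgeR) between clusters 12 and 10. Within that pair of clusters, described below, Osr2, Emx2, Ebf1 and Prrx1 had the opposite sign.

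Of 51 extracellular matrix genes tested, 29 rose and 7 fell, with a median log2 fold change of 0.64. Between clusters 2 and 0, described below, 22 of 50 rose and 12 fell, with a median of 0.28, where 19.2% of all genes rose and 16.3% fell. Type I and III collagens, the fibrils of loose connective tissue, rose by 0.70 ± 0.11 (Col1a1), 0.96 ± 0.10 (Col1a2) and 0.80 ± 0.14 (Col3a1). Type VI collagen, which forms microfibrils around cells, rose as well, with Col6a1 at 39.9, 40.3, 41.2 and 43.5 CPM against 4.83, 7.68, 10.3 and 8.28 (2.43 ± 0.17, adjusted p = 6.76e-05 in edgeR), Col6a2 at 2.63 ± 0.13 and Col6a3 at 2.71 ± 0.15 on the log2 scale. The small proteoglycans Bgn (222 ± 17.5 against 81.9 ± 18.3 CPM) and Lum (45.8 ± 6.51 against 11.8 ± 2.46) rose with Dcn. Ogn, osteoglycin, had 57 UMIs at E11.5 and 0 at E10.5, at least 30.7-fold higher. The lower members were the cartilage collagens Col2a1 (-2.50 ± 0.23), Col9a1 and Col9a3, with Col23a1, Col25a1, Fn1, which encodes fibronectin (-0.61 ± 0.07), and Tnc. The abundant members Sparc and Vcan did not pass, Sparc at 915 ± 71.8 against 774 ± 129.6 CPM and Vcan at 144 ± 5.45 against 139 ± 15.7.

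Of 41 WNT pathway genes, 19 rose and 5 fell. The falls were 1 without E11.5 XY replicate 1, 2 without E11.5 XY replicate 2 or E10.5 XX replicate 1, 5 without E10.5 XY replicate 1 and 3 without any other single library, and the library date as a block left 15 rises and 2 falls. Among ligands, Wnt5a, which acts mainly without beta-catenin, rose from 27.7 ± 2.63 to 71.3 ± 8.95 CPM (1.36 ± 0.11, adjusted p = 0.000109 in edgeR), and Wnt4, a ligand of female gonad development and tubule formation, from 42.2 ± 17.1 to 105 ± 24.3 (1.32 ± 0.34, adjusted p = 0.0184). The call of Wnt4 was lost without E11.5 XX replicate 1 or XY replicate 1, with a largest adjusted p of 0.0557. Wnt6 rose at low level (4.99 ± 1.21 against 0.305 ± 0.130). Of receptors, Fzd4 fell (-0.81 ± 0.12), and the targets Axin2 (1.07 ± 0.16) and Lef1 (0.78 ± 0.09) rose, while Ctnnb1, beta-catenin itself, had a log2 fold change of -0.01 ± 0.08, adjusted p = 0.95. Of 40 BMP and TGF-beta genes, 14 rose and 8 fell, with 4 falls without E11.5 XX replicate 2, 5 without E11.5 XY replicate 2 and 5 with the date block. Inhba, an activin subunit, rose from 2.52 ± 0.652 to 13.7 ± 4.47 (2.46 ± 0.29, adjusted p = 0.000413), Tgfbi, a matrix protein induced by TGF-beta, by 1.52 ± 0.10, and Id4, an inhibitor of helix-loop-helix factors, by 1.85 ± 0.20. Bmp5 fell (-0.99 ± 0.17), and Bmp4 (-0.30 ± 0.09, adjusted p = 0.0224) was short of the fold threshold.

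Of 20 FGF and GDNF genes, 10 rose and 2 fell, with 1 to 3 falls when 1 library was left out. Besides Spry2, the inhibitor Spry1 rose from 30.2 ± 9.21 to 101 ± 16.8 CPM (1.76 ± 0.15, adjusted p = 0.000133 in edgeR), and Gdnf, the ligand of RET in ureteric budding, from 0.398 ± 0.234 to 2.34 ± 0.483 (2.63 ± 0.33, adjusted p = 0.000487). Fgf10 and Ret were the lower members. Of 12 hedgehog genes, 6 rose and none fell, among them the targets Hhip (1.53 ± 0.32), Ptch1 (0.49 ± 0.14) and Gli1 (0.63 ± 0.20) and the coreceptor Gas1 (0.76 ± 0.11), with libraries that overlapped for Ptch1 and Gli1. Without E11.5 XX replicate 1 or XY replicate 1, 2 hedgehog genes were called, and 3 without E10.5 XX replicate 1 or XX replicate 2, and blocking on library date left 3. Of 17 PDGF and Notch genes, 8 rose and 3 fell, with a median log2 fold change of 0.44. Between clusters 2 and 0, described below, 5 rose and 4 fell (median 0.09), where 19.2% of all genes rose and 16.3% fell. Between clusters 12 and 10, 10 of 16 rose and 2 fell (median 1.02), where 16.4% of all genes rose and 13.8% fell. Over all cells the Notch ligand Jag1 rose by 1.80 ± 0.21, the receptor Notch2 by 1.14 ± 0.19 and the ligand Pdgfa by 1.37 ± 0.14, against a fall of Dlk1, an imprinted Notch ligand homologue, from 926 ± 252 to 326 ± 38.0 (-1.50 ± 0.19, adjusted p = 0.000565).

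Of 17 retinoic acid genes, 2 rose and 4 fell, where 17.4% of all genes rose and 13.9% fell, so the list was near these shares. Without E11.5 XY replicate 2 the list had 4 rises. Between clusters 2 and 0, described below, 6 rose and 5 fell, where 19.2% of all genes rose and 16.3% fell. The median log2 fold change of the list was 0.43 in that pair against -0.06 over all cells. Aldh1a2, which makes retinoic acid from retinal, rose from 123 ± 13.7 to 268 ± 21.2 CPM (1.12 ± 0.10, adjusted p = 0.000144 in edgeR), and Rdh10, which makes retinal from retinol, by 1.63 ± 0.11. The binding proteins Crabp1 (-0.90 ± 0.17) and Crabp2 and the degrading enzyme Cyp26a1 fell. Between clusters 12 and 10, Aldh1a2 was -0.59 and Crabp1 1.14, of opposite sign. Guidance cues and chemokines had 12 higher and 7 lower of 28, and 4 lower without E10.5 XY replicate 2. Cxcl12, a chemokine that draws germ cells and endothelium (chr6:117168535-117181367), fell to 279.9, 259, 269 and 364 CPM from 611, 569, 615 and 609.7 (-1.04 ± 0.10, adjusted p = 0.000195), and its scavenging receptor Ackr3 rose (1.39 ± 0.28). The semaphorin receptors Nrp1 (-0.79 ± 0.13) and Nrp2 (-2.06 ± 0.37) fell, and the cues Sema3c (1.61 ± 0.10) and Slit2 (1.04 ± 0.09) rose.

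Genes named for the interstitial progenitors of the gonad and for steroid receptors had 9 of 14 higher and 2 lower. Esr1, the oestrogen receptor (chr10:4611593-5005614), stood at 3.56, 2.58, 5.13 and 1.99 CPM at E11.5 against 0.0241, 0.145, 0.146 and 0.141 at E10.5 (4.79 ± 0.44, adjusted p = 0.000154 in edgeR), low at both stages and without overlap between them. Maf, a leucine zipper factor of interstitial cells, rose (95.8 ± 10.1 against 47.5 ± 9.59 CPM), whereas the gonadal factors Gata4 (-0.80 ± 0.20) and Lhx9 (-0.83 ± 0.20) fell over all cells but not within every pair of clusters. Gata4 lost its call with the library date as a block (adjusted p = 0.0736 in limma-voom), and Nr5a1 (-0.45 ± 0.18, adjusted p = 0.0736) was not called.

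Of 23 genes of developmental timing and growth, 13 fell and 3 rose. Lin28a, which blocks let-7 maturation in early embryos, stood at 0.652, 0.732, 0.607 and 0.602 CPM at E11.5 against 17.5, 12.3, 5.12 and 13.1 at E10.5 (-4.17 ± 0.33, adjusted p = 0.000102 in edgeR), and Trim71, another member of the let-7 pathway, fell by 1.82. Igf2bp1, an RNA-binding protein of fetal tissue (-0.66 ± 0.09), the imprinted gene Peg3 (-0.71 ± 0.07) and Igf1 (-1.28 ± 0.10) fell, Myc (1.58 ± 0.22) and Mycn (0.95 ± 0.11) rose, and Hmga2 (-0.05 ± 0.07, adjusted p = 0.653) and Igf2 (0.07 ± 0.32, adjusted p = 0.887) were not called. Of 20 glycolysis and hypoxia genes, 9 fell and 3 rose. The enzymes Eno1 (440.1 ± 66.6 against 1009.5 ± 166 CPM), Aldoa (log2 fold change -1.15 ± 0.09), Pkm (-1.05 ± 0.09), Ldha (361 ± 28.0 against 723 ± 125 CPM) and Gapdh (-0.84 ± 0.07) were lower, and the hypoxia targets Vegfa (0.99 ± 0.49, adjusted p = 0.151) and Slc2a1 (0.08 ± 0.11, adjusted p = 0.62) were not called. Of 33 Hox genes, 14 fell and 2 rose, with 0 to 3 rises when 1 library was left out. Hoxb7 (-1.39 ± 0.13), Hoxb9 (-1.97 ± 0.22) and Hoxa2 (-1.28 ± 0.13) fell. Hoxd11, a more 5′ gene, rose (1.71 ± 0.54, adjusted p = 0.0379) but lost its call in 6 of 8 fits that left out 1 library. Contractile and perivascular genes had 8 of 15 lower and 2 higher, a balance that turned in 1 pair of clusters described below, and 5 lower without E10.5 XY replicate 2, with Des, desmin, at 54.4 ± 4.05 against 119 ± 14.6 CPM, and Kcnj8, a potassium channel of pericytes, among the higher (2.41 ± 0.38). Of ribosomal protein genes 2 of 86 rose and 8 fell, with 13 falls without E11.5 XX replicate 1 or XY replicate 1 and 14 without E10.5 XY replicate 1. Of mitochondrial genes 7 of 27 rose and 1 fell, with 4 rises without E11.5 XY replicate 1 and 12 without E11.5 XY replicate 2.

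**Figure D3:**
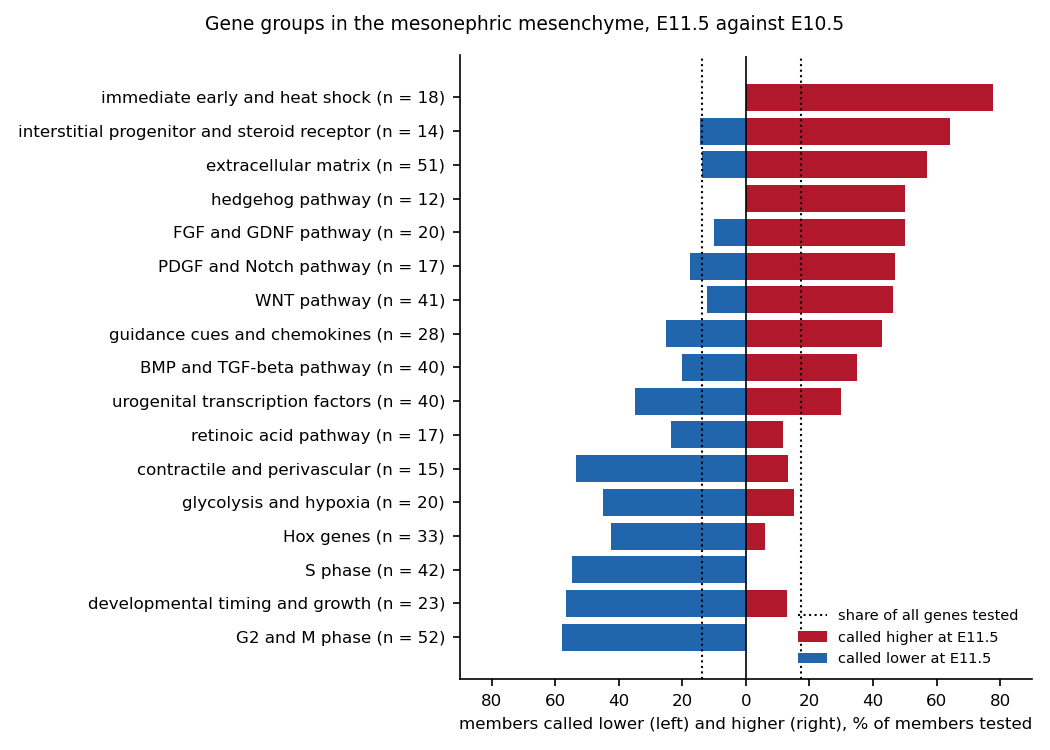
Share of the tested members of gene lists other than the markers of other cells called higher (right, red) or lower (left, blue) at E11.5 in edgeR (% of members tested), with the shares over all genes as dotted lines at 17.4% and 13.9%. Of the lists plotted, the immediate early, interstitial and matrix lists lie furthest to the right, and the cell cycle and developmental timing lists furthest to the left.

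Immediate early and heat shock genes rose most often, 14 of 18 with none lower and a median log2 fold change of 1.29. Egr1, a zinc finger factor, stood at 258, 169, 249.5 and 246 CPM at E11.5 against 20.6, 21.6, 89.1 and 17.9 at E10.5 (2.78 ± 0.50, adjusted p = 0.00418 in edgeR). Junb, a subunit of AP-1, stood at 240.0, 253, 254 and 314 against 27.7, 30.9, 115 and 36.4 (2.49 ± 0.40, adjusted p = 0.00239). Nr4a1 and Btg2, from the largest rises, were outside the list and enter none of its counts and sums. Nr4a1, an orphan nuclear receptor (chr15:101254269-101274795), stood at 88.4, 97.5, 87.2 and 154 against 8.06, 6.01, 48.7 and 8.25 (2.89 ± 0.62, adjusted p = 0.0102), and Btg2, an inhibitor of proliferation, at 184, 170.5, 188 and 269 against 14.1, 21.2, 77.8 and 26.5 (2.72 ± 0.41, adjusted p = 0.00187). In each of these 4 genes, E10.5 XY replicate 1 was the highest library of E10.5. The 14 genes called higher, chosen by that call, summed to 2648, 3029.7, 2742 and 4115 CPM at E11.5 and to 1025, 971, 2185 and 998 at E10.5. All 18 genes, the abundant heat shock genes included, summed to 4988 to 6864 CPM at E11.5 and 2631 to 4535 at E10.5. Without E10.5 XY replicate 1, 13 of the 18 were called, with a log2 fold change of 3.52 for Egr1, and Nr4a1, outside the list, was at 3.79. Without E11.5 XX replicate 1 or E10.5 XX replicate 2, 10 were called, without E11.5 XY replicate 2 11, and with the XX and XY sums of a date added together 9. Among G1 cells 8 of the 18 were called. Egr1 (2.08 on the log2 scale, adjusted p = 0.0523 in edgeR) was not, nor was Nr4a1 (2.09, adjusted p = 0.0863), outside the list. Fos (1.65 ± 0.47, adjusted p = 0.0277) and Jun (0.91 ± 0.28, adjusted p = 0.0351) lost their calls in 5 and 6 of 8 fits that left out 1 library, and Dnajb1, a heat shock gene, had a log2 fold change of -0.02 ± 0.29, adjusted p = 0.96. The same list had 15 of 18 genes higher at E11.5 in the coelomic epithelium, and 12 in the mesonephric tubules and 12 in the endothelium of the same libraries, where 15.8%, 20.3% and 4.61% of all genes tested were higher. None of the list was lower in those 3 types, where 13.1%, 15.9% and 4.19% of all genes were.

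Promoters of members that moved together were read for short motifs, since many immediate early genes respond through cAMP response elements or EGR sites and glycolytic genes through E-boxes. A window of 300 bases, from 250 before to 50 after the RefSeq start site, was available for 12 of the 14 immediate early genes called, 9 of the 9 glycolysis genes that fell and 6 of the 12 largest rises. On either strand, TGACGTCA, the cAMP response element, was in the windows of Dusp1, Btg2 and Ldha and in 1.79% of all 32851 windows. GCGGGGGCG, the EGR motif, was in Nr4a1, Fosb, Zfp36, Klf2 and Klf4 and in 2.91% of all, and CACGTG, the E-box, in Dusp1, Klf4, Ldha and Bnip3 and in 7.15% of all. CACGAG, a motif bound by HES proteins, was in Fosb, Junb, Nbl1, Pgk1 and Pkm and in 6.47% of all. TTCCNGGAA, a STAT motif, was in none of these windows and in 1.15% of all. The 4 windows below are shown as examples that hold the first 3 motifs, chosen after the search. Letters are RefSeq on GRCm38.p6, 5′ to 3′ on the strand of the gene, with the first 3 motifs in capitals, which did not overlap.
Nr4a1, chr15:101266596-101266895, plus strand: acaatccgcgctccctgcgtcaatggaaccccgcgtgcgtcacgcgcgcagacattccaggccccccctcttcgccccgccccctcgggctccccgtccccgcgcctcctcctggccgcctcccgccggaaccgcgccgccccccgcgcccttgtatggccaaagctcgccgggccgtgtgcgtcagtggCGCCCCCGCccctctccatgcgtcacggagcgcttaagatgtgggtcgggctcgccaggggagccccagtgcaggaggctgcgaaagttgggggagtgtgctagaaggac
Btg2, chr1:134079106-134079405, minus strand: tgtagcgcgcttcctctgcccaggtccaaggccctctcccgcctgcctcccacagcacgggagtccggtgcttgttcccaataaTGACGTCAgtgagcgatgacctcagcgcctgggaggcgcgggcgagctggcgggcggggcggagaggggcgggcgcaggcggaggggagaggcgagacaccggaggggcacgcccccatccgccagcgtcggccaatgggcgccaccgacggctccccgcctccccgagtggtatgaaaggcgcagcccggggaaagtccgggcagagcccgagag
Dusp1, chr17:26508423-26508722, minus strand: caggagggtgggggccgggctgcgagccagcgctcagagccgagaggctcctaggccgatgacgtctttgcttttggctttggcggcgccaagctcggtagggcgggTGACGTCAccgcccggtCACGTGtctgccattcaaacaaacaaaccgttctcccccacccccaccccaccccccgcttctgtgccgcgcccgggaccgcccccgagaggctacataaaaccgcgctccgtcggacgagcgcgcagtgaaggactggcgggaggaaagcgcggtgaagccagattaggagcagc
Ldha, chr7:46845554-46845853, plus strand: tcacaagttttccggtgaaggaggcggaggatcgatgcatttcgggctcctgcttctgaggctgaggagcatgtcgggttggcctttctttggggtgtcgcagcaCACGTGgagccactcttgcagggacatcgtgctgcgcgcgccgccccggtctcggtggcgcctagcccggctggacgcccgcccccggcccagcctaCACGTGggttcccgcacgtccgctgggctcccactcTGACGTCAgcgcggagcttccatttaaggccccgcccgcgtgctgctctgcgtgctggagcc

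The mesenchyme of E11.5 lay mostly in 2 deposited clusters, which are described without a test because clusters were made from these values. Cluster 2 held 4812 of the 8351 cells, 57.1% ± 6.27 of a library's mesenchyme, and cluster 12 held 3446, 41.8% ± 5.85 (SD, n = 4). Another 41 cells lay in cluster 0 and 52 in cluster 10, the main clusters of E10.5. Median UMIs per cell were 13353 to 16647 in cluster 2 and 16221 to 19597 in cluster 12. Cluster 2 led with Igfbp3, an IGF-binding protein, at 318 ± 83.7 CPM against 20.8 ± 6.36 in cluster 12. Osr2 (69.3 against 5.48), Smoc2, a matricellular protein (59.0 against 4.75), Gata2 (237 ± 28.9 against 24.7 ± 5.76), Krt18, Agtr2 (91.7 ± 32.2 against 10.0 ± 3.09), the retinol receptor Stra6 and Tbx3 followed. Aldh1a2 (457 ± 40.1 against 96.2 ± 11.9), Wnt4 (161 ± 29.5 against 53.1 ± 13.2) and Inhba (23.6 against 3.87) were also higher there.

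Cluster 12 led with Cxcl12, at 606 ± 42.8 CPM against 46.0 ± 9.70 in cluster 2. Clca3a1, a secreted chloride channel regulator (61.6 against 6.09), Shisa3, an inhibitor of WNT and FGF signalling (221 against 25.1), Sfrp2, a secreted WNT inhibitor (127 against 19.0), Nefm, Ddah1 and Asb4 followed. Tbx18 (40.0 against 1.96) and the smooth muscle genes Acta2 (287 against 80.5) and Tagln (195 against 43.3) were higher there as well. Dcn (175 in cluster 2 and 171 in cluster 12), Osr1 (32.0 and 33.1) and Nr2f2 (517 and 469) were at like levels in both.

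Among list members at 20 CPM or more in a cluster, a difference of at least 1.5-fold favoured cluster 12 for 16 of 34 matrix genes and cluster 2 for 3. It favoured cluster 12 for 5 of 7 contractile genes and cluster 2 for none, and cluster 2 for 5 of 10 retinoic acid genes and 4 of 10 PDGF and Notch genes, with none for cluster 12. The share of all genes at that cut was not computed, so these counts cannot be set against it. No S phase gene of 39 and no G2 and M phase gene of 47 differed by that much, and the G1 share was 48.2% ± 5.24 in cluster 2 and 47.3% ± 3.08 in cluster 12. At E10.5 the mesenchyme lay mostly in clusters 0 (5541 cells) and 10 (3472 cells), with 29 cells in cluster 2 and 2 in cluster 12, and clusters 0 and 10 had G1 shares of 14.5% ± 3.15 and 40.5% ± 7.13. The log ratio of clusters 2 and 12 correlated with that of clusters 0 and 10 across 3607 genes at Pearson's r = 0.391 and Spearman's rho = 0.229, as a description across genes that share libraries and depth. Of 96 genes at least 2-fold apart at E11.5, 42 were as far apart the same way at E10.5 and 11 the opposite way. Osr2, higher in cluster 2 at E11.5, was at 5.40 CPM in cluster 0 and 27.7 in cluster 10.

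**Figure D4:**
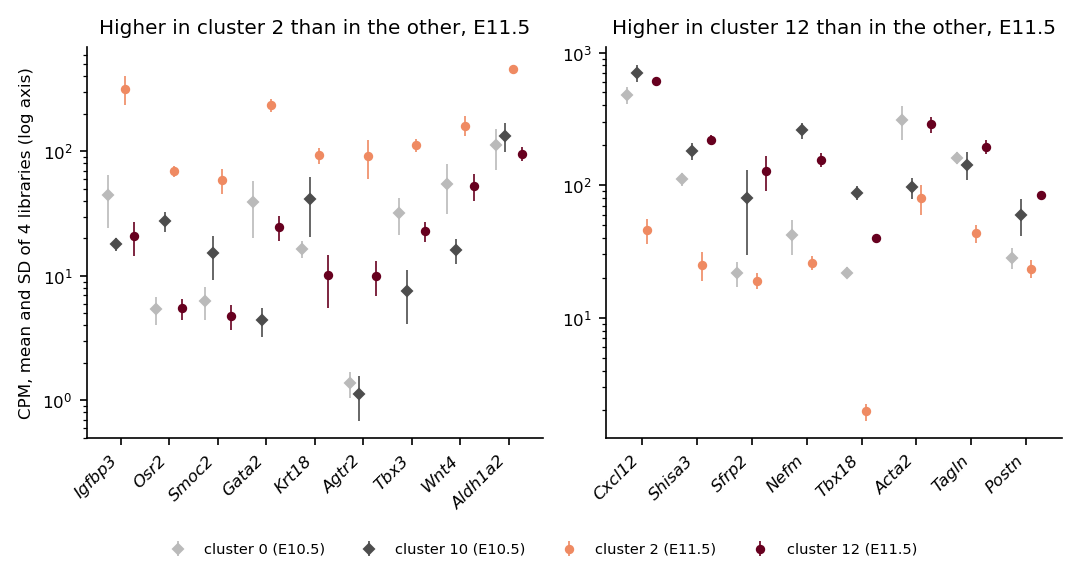
CPM (log axis) of genes that were higher in cluster 2 (left) or cluster 12 (right), as mean and SD of 4 libraries, in the 2 clusters of E11.5 (circles) and the 2 clusters of E10.5 (diamonds). Cxcl12 was at 606 CPM in cluster 12 and 46.0 in cluster 2, while at E10.5 both clusters were high, and Agtr2 was at 1.37 and 1.13 CPM in the clusters of E10.5.

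Stage differences were also fitted between clusters 2 and 0 and between clusters 12 and 10, a pairing chosen after the values were seen. This pairing followed the positive but weak correlation above (Pearson's r = 0.391), and 11 of the 96 genes went the opposite way. Between clusters paired so loosely, a change with stage and a mismatch of clusters cannot be told apart. With cluster 2 against cluster 0, 6284 genes were called in edgeR, and with cluster 12 against cluster 10, 5037. Agtr2 rose in both (5.79 and 3.03 on the log2 scale), as did Hes1 (2.54 and 2.82) and Dcn (2.63 and 2.57). Osr2 was 3.54 between clusters 2 and 0 and -2.45 between clusters 12 and 10, Aldh1a2 1.88 and -0.59, Prrx1 -1.04 and 0.97, and Acta2 -2.10 and 1.46. Gata4 and Lhx9 were 1.15 and 1.06 between clusters 2 and 0, against falls over all cells, and Crabp1 was 1.14 between clusters 12 and 10. Of genes named above, Actc1, Pdgfra, Emx2, Ebf2, Fn1, Gli1, Hhip, Cxcl12 (-0.32), Nrp2, Sema3c, Fos, Jun and Hoxd11 lost their calls between clusters 12 and 10. Coelomic epithelium markers were higher for 6 of 7 between clusters 2 and 0 (median log2 fold change 1.15) and lower for 7 of 7 between clusters 12 and 10 (median -2.12), and their part in these differences was not tested. The differences between the cluster pairs were not tested. With the library date as a block, Ebf2, Gata4, Ptch1, Gli1, Jun, Acta2 and Myog were not called in limma-voom, nor were Hmcn1 and Hlx, named below. Among G1 cells Nr4a1, Egr1, Fos, Jun, Dusp1, Ebf1, Prrx1, Crabp1, Top2a and Myog were not called in edgeR. Between clusters 2 and 0, 11 of 15 contractile genes were lower and 2 higher, where 16.3% of all genes were lower and 19.2% higher. Between clusters 12 and 10, 6 contractile genes were higher and 2 lower, where 16.4% of all genes were higher and 13.8% lower.

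The stage difference was compared with that of other cell types in the same libraries, by the interaction of stage and cell type in edgeR with library as a block. It differed from that of the coelomic epithelium for 2761 of 19132 genes (14.4%), from that of the mesonephric tubules for 4530 of 19199 (23.6%) and from that of the endothelium, with 208 cells at E11.5 and 172 at E10.5, for 957 of 17269 (5.54%). Of genes called in the mesenchyme, 22.3%, 31.5% and 11.4% had such a difference. The change in the mesenchyme enters both that call and the interaction, so higher shares than over all genes can follow from the selection. Without the library block 1148, 2514 and 247 genes differed, and the endothelium count was 616 without E10.5 XY replicate 2. Against the coelomic epithelium, Tbx3 had a log2 fold change of 1.52 in the mesenchyme and -1.45 ± 0.21 there (difference 2.95 ± 0.13, adjusted p = 1.61e-10 in edgeR), Capn6, a calpain family member, of 1.40 in the mesenchyme and -0.02 ± 0.10 there (difference 1.42 ± 0.07, adjusted p = 1.61e-10), and Gata4 of -0.80 in the mesenchyme and 0.92 ± 0.19 there (difference -1.71 ± 0.09, adjusted p = 1.93e-10). Hmcn1, the matrix protein hemicentin, had 0.46 in the mesenchyme and 2.48 ± 0.18 there (difference -1.97 ± 0.10, adjusted p = 1.61e-10), and its own call in the mesenchyme was lost without E11.5 XY replicate 2 or E10.5 XY replicate 1 and with the library date as a block (adjusted p = 0.0558 in limma-voom). Akap12 (difference 1.74) and Myl7 (difference -2.13) were the other 2 named by the rule. In the mesenchyme itself, Capn6 was not called between clusters 12 and 10 (0.21, adjusted p = 0.17 in edgeR), nor were Akap12 (0.12, adjusted p = 0.348), Myl7 (-0.18, adjusted p = 0.491) and Hmcn1 (adjusted p = 0.075) between clusters 2 and 0. Of 33 Hox genes, 17 were more positive and 5 more negative in the mesenchyme than in the coelomic epithelium, and of 15 contractile genes 3 and 9, against 7.54% and 6.89% of all genes.

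Against the tubules, Rdh10 had a log2 fold change of 1.63 in the mesenchyme and -0.27 ± 0.14 in the tubules (difference 1.97 ± 0.10, adjusted p = 5.83e-09 in edgeR), Bcar3 of 1.09 in the mesenchyme and -1.16 ± 0.20 (difference 2.31 ± 0.17, adjusted p = 7.55e-08), and Actc1 of -1.97 in the mesenchyme and 0.81 ± 0.29 (difference -2.70 ± 0.15, adjusted p = 5.83e-09). Clcn5, a chloride transporter of renal tubules, had -0.74 in the mesenchyme and 1.45 ± 0.13 (difference -2.14 ± 0.12, adjusted p = 1.43e-08), and Prr5l (1.80) and Dap (-1.23) were also named by the rule. Prr5l was not called in the mesenchyme between clusters 12 and 10 (0.22, adjusted p = 0.47 in edgeR), and kept its call in 4 of 8 fits that left out 1 library. Cell cycle genes fell further in the tubules, where 39 of 42 S phase and 46 of 52 G2 and M phase genes were lower at E11.5 (15.9% of all genes), and 34 and 36 of these genes were more positive in the mesenchyme by the interaction (12.6% of all genes). Against the endothelium, Lyve1, a hyaluronan receptor, had 2.59 in the mesenchyme and -1.91 ± 0.61 in the endothelium (difference 4.50 ± 0.40, adjusted p = 5.65e-26), at 1.59 ± 0.309 CPM in the mesenchyme of E11.5, and Igf1 had -1.28 in the mesenchyme and 0.45 ± 0.19 (difference -1.68 ± 0.13, adjusted p = 1.76e-32). The changes of Lyve1 and Igf1 in the endothelium itself were not called (adjusted p = 0.112 and 0.156 in edgeR). The endothelial sums held 21 to 85 cells each, and p-values this small come from a spread that edgeR shares across genes. Ramp2 (1.59), Bok (1.76), Hlx (-3.29) and Fabp5 (-1.48) were the others. Hlx lost its own call in the mesenchyme with the library date as a block (adjusted p = 0.104 in limma-voom). For immediate early genes, 3 of 18 were more negative in the mesenchyme than in the coelomic epithelium, 5 were more positive than in the tubules and 3 more positive than in the endothelium, where 1.86% of all genes were more positive and 3.68% more negative.

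**Figure D5:**
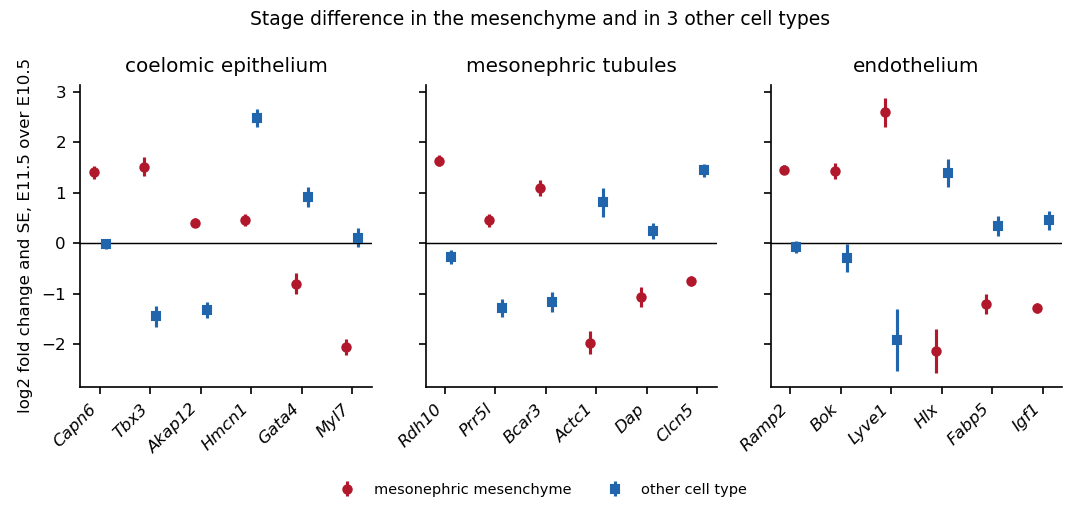
Log2 fold change of E11.5 over E10.5 with its SE in the mesonephric mesenchyme (circles) and in a second cell type of the same libraries (squares), for the 6 genes named per comparison. Tbx3 was 1.52 in the mesenchyme and -1.45 in the coelomic epithelium, and Rdh10 1.63 in the mesenchyme and -0.27 in the tubules.

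Between XX and XY mesenchyme of E11.5, 1 of 18873 genes was called in edgeR (0.0053%), the Y-linked histone demethylase gene Kdm5d, and 235 genes had an unadjusted p below 0.05. DESeq2 called 4 genes and leaving out 1 library at a time 3 to 6. Without XY replicate 2, the library with Xist transcripts, Kdm5d, Tsix and Xist were called. Kdm5d and Xist were also called without XY replicate 1. Each of these fits left 1 XY library, so the part of the mixed transcripts cannot be told from the lost spread between XY libraries. The stage difference differed between XX and XY for 0 of 19960 genes in edgeR (0.0%), with 465 at an unadjusted p below 0.05. A 2-fold change simulated in 67 genes of the XX and XY comparison was recovered for 67.2% of them, and a 1.5-fold change for 13.4%. The changed genes came only from those above a minimum level. The simulated counts were drawn independently for each library, without the correlation within dates or the mixed sex-linked transcripts. Recovery in the real libraries can thus be lower, and Xist itself was not called in the main fit.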

How the data were processed

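Cells of mouse urogenital ridges were profiled on the 10x Chromium platform with 3′ version 2 chemistry. The authors deposited 1 matrix of UMI counts for 26397 genes and 94705 cells, made with Cell Ranger 2.1 on GRCm38 with an eGFP sequence added, with no cell removed for quality or doublets. They also deposited a table of cells with the library, Leiden cluster, cell type name, cell cycle phase, UMI count and the ratio of reads per UMI. Genes that overlap on the same strand cannot be told apart in the shared bases. Counting by strand is not given in the sources used here, so exchange of reads between opposite strands was not checked.

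Here counts of mesenchymal cells were summed per library, since cells are not replicates, and fitted with edgeR 4.0.16 in R 4.3.3 (TMM, filterByExpr, robust quasi-likelihood, a term for sex, two-sided), with Benjamini-Hochberg adjustment over every gene in the fit. Calls required an adjusted p under 0.05 and a change of 0.25 or more on the natural log scale. Levels are TMM-normalized CPM for stages and plain CPM for cell types and clusters. The ± of a level is the SD of libraries, and that of a log2 fold change the SE from the edgeR test. The interaction of stage and cell type used sums of at least 5 cells with library as a block. Shares were compared by exact permutation over libraries. Thinning to 8000 UMIs left out 341 cells. Doublets were left in, except in an alternative without the top 5% of scores. Summed UMIs were 19500628 to 76008786 per library, and intervals cover counting error only. The fits were tested on simulated counts. DESeq2 1.42.0 and limma 3.58.1 served as alternatives.

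The stage text names the 12 largest rises and falls among called genes of at least 50 CPM whose libraries did not overlap, members of gene lists, and 3 genes in each direction of each interaction. Some genes that these rules select are not reported here. The cell type, markers and gene lists were chosen with earlier results of these data known, and some further genes after their values were seen. Gene positions are GENCODE M21 on GRCm38. XX and XY libraries of 1 stage share dates by their names, so date was a block in an alternative. Their deviations from the mean of their stage and sex correlated within dates (0.374 at E11.5 and 0.285 at E10.5). With 2 libraries of each stage and sex, the 2 dates of a stage give the same value, so each stage has 1 estimate. Replicate numbers do not pair libraries across stages.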

Additional observations from a re-analysis of the deposited data

Results flagged for a closer look

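In groups of 4 libraries, the highest or lowest value was looked at for its gap to the others, over the 316 groups of genes and summed lists, and 32 (10.1%) had a gap above Dixon's 95% critical value, where chance gives about 1 in 20. Values in brackets are TMM-normalized CPM of the library that stood apart. E10.5 XY replicate 1 stood above the other libraries of its stage for Nr4a1 (48.7), Egr1 (89.1), Dcn (41.4), Junb (115), Id4 (6.06), Fos (268), Jun (1009), Ier3 (15.8), Dusp1 (119.7), the germ cell gene Pou5f1 (3.57) and the sum of the called immediate early genes (2185). E11.5 XY replicate 2 stood above the other libraries of its stage for Nr4a1 (154), Gucy1a3 (114), Osr1 (35.8), Ebf1 (82.1), Trim71 (2.86), Fos (434), Myod1 (0.391), Hmcn1 (40.0) and Dap (107). E10.5 XX replicate 1 stood above the other libraries of its stage for Osr1 (54.1), Gapdh (2876) and Hoxa2 (29.5). E11.5 XX replicate 2 stood below the other libraries of its stage for Egr1 (169) and Hoxb9 (3.12). E11.5 XY replicate 1 stood below the other libraries of its stage for Gas1 (81.5) and Tagln (89.0). E10.5 XX replicate 1 stood below the other libraries of its stage for Esr1 (0.0241). E10.5 XX replicate 2 stood below the other libraries of its stage for Cxcl12 (569). E10.5 XY replicate 1 stood below the other libraries of its stage for Cck (35.7). E11.5 XX replicate 2 stood above the other libraries of its stage for Mycn (67.0). E11.5 XY replicate 2 stood below the other libraries of its stage for Lef1 (36.0).

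The stage difference in the mesenchyme differed from that of another cell type of the same libraries, by the interaction in edgeR, for 2761 genes against the coelomic epithelium, 4530 against the tubules and 957 against the endothelium. On the log2 scale, the mesenchyme minus the coelomic epithelium was 1.42 for Capn6, 2.95 for Tbx3, 1.74 for Akap12, -1.97 for Hmcn1, -1.71 for Gata4 and -2.13 for Myl7. The mesenchyme minus the tubules was 1.97 for Rdh10, 1.80 for Prr5l, 2.31 for Bcar3, -2.70 for Actc1, -1.23 for Dap and -2.14 for Clcn5. The mesenchyme minus the endothelium was 1.59 for Ramp2, 1.76 for Bok, 4.50 for Lyve1, -3.29 for Hlx, -1.48 for Fabp5 and -1.68 for Igf1.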

How the results depend on the processing

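The count of genes called between stages, 6047, was between 4385 and 7203 under DESeq2, other size factors, no filter, no fold threshold, no term for sex, limma-voom, dates added, equal cells, thinned cells, G1 cells, left-out doublets, left-out muscle cells and either pair of clusters, and 5176 to 6386 (2820 to 3573 higher, 2325 to 2813 lower) when 1 library was left out. With the library date as a random replicate block it was 4740, and 6186 in limma-voom without a block. XX alone gave 3079 (1724 higher, 1355 lower) and XY alone 1426 (848 and 578), with fewer libraries by construction. Without the library block, the stage difference in the mesenchyme differed from that in the coelomic epithelium for 1148 genes, in the tubules for 2514 and in the endothelium for 247, and with no fold threshold for 4190 in the coelomic epithelium. Leaving out 1 library gave 2195 to 2857, 3770 to 4849 and 616 to 1006, with 616 without E10.5 XY replicate 2. Between XX and XY, DESeq2 called 4 genes, the date as replicate block 2, 8 libraries with a term for stage 5, and leaving out 1 library 3 to 6. The share of mesenchyme in a library differed by -12.0 to -4.60 points with 1 library left out. The phase differences were then 20.4 to 24.6 points for G1, -12.5 to -8.80 for S and -13.1 to -11.6 for G2M, at p = 0.0571, the smallest an exact permutation test of 3 against 4 can give.

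Of 138 called genes followed under 24 alternatives, 119 were called whichever library was left out. Of 3302 values, 207 kept their sign but lost the call. These included 51 in XY alone, 22 in XX alone, 17 with dates added and 16 between clusters 12 and 10. Another 14 values changed sign. Between clusters 12 and 10 these were Osr2 (-2.45), Emx2 (-0.32), Ebf1 (0.72), Prrx1 (0.97), Fn1 (0.0289), Aldh1a2 (-0.59), Crabp1 (1.14), Pdgfc (-0.0729), Acta2 (1.46), Tagln (0.34) and Bcar3 (-0.71). Between clusters 2 and 0 they were Gata4 (1.15) and Lhx9 (1.06), and among G1 cells Crabp1 (0.0054). The cause was not tested. A fit within each single cluster was not run, because no cluster held 20 cells in all 8 libraries, and deposited doublet scores were not used, because the cell table analysed here holds none. Scores computed anew, cell phases called anew, the cluster pairs and the left-out muscle cells were chosen after seeing the data. Simulated 1.5-fold changes between stages were recovered for 40.3% of genes and 2-fold changes for 91%, in counts drawn without the correlation within dates. Only 67 genes were changed at each of these folds, all above a minimum level, whereas 6047 of 19354 were called in the data. The adjustment for many tests thus differed from that of the real fit, and recovery there can differ.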
